A study of Mus musculus with 10 samples.

Results

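Microglia and macrophage marker genes were read in sorted neural cells of the embryonic mouse cortex. The 9 genes C1qa, C1qb, C1qc, Csf1r, Cx3cr1, Tmem119, Aif1, P2ry12 and Mrc1 were chosen by name, and each was found by its Entrez gene ID among the 27178 genes of the deposited tables. All 9 were present. Their raw counts were low, between 0 and 90 reads per gene and library, out of 22505945 to 30825498 reads counted per library.

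The study asked what the secreted matricellular protein CCN1 and the cell-surface proteoglycan GPC4 do in cortical neural stem cells. GFP-positive cells were sorted from dissociated cortex and profiled by bulk RNA-seq, with 2 libraries in each of 5 groups. The E17.5 groups were C57BL/6 embryos, either wild type (WT) or with a conditional Ccn1 knockout (Nestin-Cre, Ccn1 fl/fl; CcKO), and both had received the control PiggyBac plasmid PB-Ctrl by in utero electroporation at E14.5. The E15.5 groups were wild-type ICR embryos electroporated at E13.5 with the same control plasmid or with a plasmid for CCN1 (PB-CCN1) or GPC4 (PB-GPC4). Every group, controls included, also received the PiggyBac transposase plasmid, at 3 µg/µl beside 1.5 µg/µl of the PiggyBac plasmid, injected into the lateral ventricle. Nestin-Cre is active in the neural lineage, whereas microglia descend from yolk sac progenitors. The labels do not say whether embryos were pooled or whether replicates came from separate litters, and p-values then measure only the spread between these libraries, which may be technical.

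Microglia are the resident macrophages of the brain parenchyma. They enter the embryonic cortex early, depend on signals through the receptor CSF1R, and supply complement C1q, which tags cells and synapses for uptake. Electroporation from the ventricle delivers plasmid to the neural progenitors that line it. In bulk RNA of this kind, fewer cells of a type and less RNA per cell cannot be told apart.

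The genes of the list sit at separate places in the genome except for the C1q subunits, which lie side by side. On GRCm38.p6, C1qb (gene ID 12260) spans chromosome 4 from 136880126 to 136886200, C1qc (12262) from 136889801 to 136892936 and C1qa (12259) from 136895916 to 136898844. The RefSeq promoter table of that build was searched for 6 of the 9 genes. The letters GAGGAA and AGGAAGT, forms of the core bound by the myeloid factor PU.1, were sought on both strands from 250 bases before to 50 bases after each start. The motifs share the letters AGGAA and can overlap. GAGGAA was found in 4 of the 6 promoters, against 28.3% of all 32851 promoters of that length, and AGGAAGT in 4 of the 6, against 9.35%. Either was found in 5 of the 6, against 32.7% of all, and neither in that of Cx3cr1. A match of letters is a description and not a site. The promoters printed here, 5′ to 3′ on the minus strand, belong to those of the 6 that passed the main test of some comparison below. Csf1r also passed but was not among the 6 searched. Capitals mark the motifs on either strand, at chr4:136892865-136893164 for C1qc, chr3:59262936-59263235 for P2ry12 and chr17:35176003-35176302 for Aif1.
C1qc: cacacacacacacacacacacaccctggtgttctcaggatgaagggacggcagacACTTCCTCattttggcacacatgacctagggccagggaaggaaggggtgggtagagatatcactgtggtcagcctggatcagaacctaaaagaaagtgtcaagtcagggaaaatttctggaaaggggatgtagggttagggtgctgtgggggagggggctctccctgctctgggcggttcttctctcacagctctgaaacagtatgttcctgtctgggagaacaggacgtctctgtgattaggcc
P2ry12: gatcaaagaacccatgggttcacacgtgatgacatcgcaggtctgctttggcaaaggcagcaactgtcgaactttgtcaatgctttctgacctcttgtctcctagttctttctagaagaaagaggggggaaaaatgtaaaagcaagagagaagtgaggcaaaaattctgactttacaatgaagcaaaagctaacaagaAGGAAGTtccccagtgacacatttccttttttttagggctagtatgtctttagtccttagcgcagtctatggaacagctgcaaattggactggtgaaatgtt
Aif1: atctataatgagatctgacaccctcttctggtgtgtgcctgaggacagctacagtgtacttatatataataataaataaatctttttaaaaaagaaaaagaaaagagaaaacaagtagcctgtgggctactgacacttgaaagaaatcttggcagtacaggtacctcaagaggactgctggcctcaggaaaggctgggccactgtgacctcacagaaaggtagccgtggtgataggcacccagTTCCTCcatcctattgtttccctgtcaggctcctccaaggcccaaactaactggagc
In C1qc both motifs coincide in a single stretch, read on the opposite strand, while P2ry12 holds AGGAAGT alone and Aif1 holds GAGGAA alone.

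The labels were checked first. Ccn1 had 415 and 340 counts in the WT libraries and 17 and 86 in the CcKO libraries, and 158376 and 162522 counts in PB-CCN1 against 1309 and 1618 in PB-Ctrl. Gpc4 had 131249 and 152544 counts in PB-GPC4. The sort matched its label as neural: the 10 cortical neural markers summed to between 7980 and 8690 CPM (counts scaled to library size, here after trimmed mean of M-values or TMM normalisation) in the 10 libraries. The 9 members summed to between 4.18 and 13 CPM, and 10 markers of other white blood cells to at most 0.862 CPM, with Cd3e of T cells, Mpo of neutrophil precursors and Nkg7 of cytotoxic lymphocytes at 0 in all 10.

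**Figure D1:**
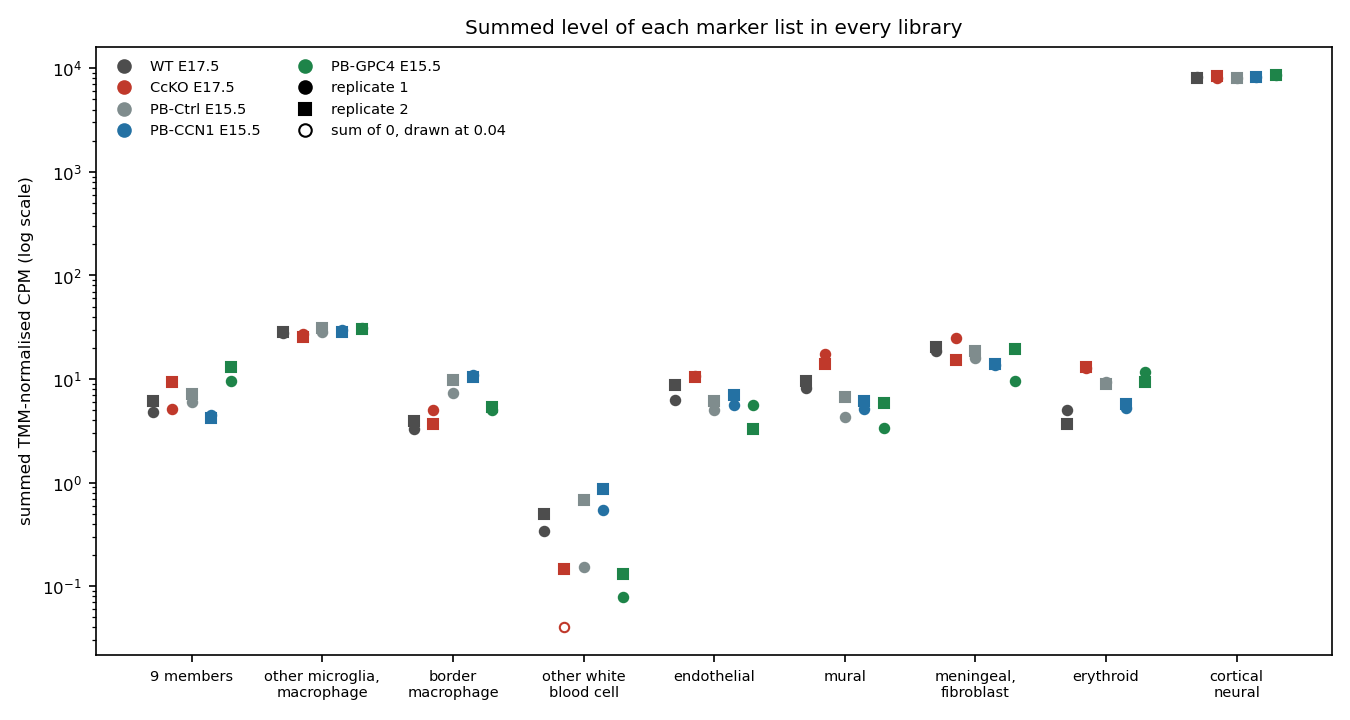
Summed TMM-normalised CPM of each marker list (log axis) in each of the 10 libraries, coloured by group, with circles for replicate 1 and squares for replicate 2. The 9 members lie between 4.18 and 13 CPM, far below the cortical neural markers at 7980 to 8690, and the other white blood cell markers lie at or below 0.862.

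Summed over the 9 genes, the libraries held 112 and 170 counts in the WT libraries, 131 and 257 with the knockout, 156 and 200 under PB-Ctrl, 101 and 97 under PB-CCN1 and 248 and 397 under PB-GPC4. PB-GPC4 was the highest group at 11.3 ± 2.4 CPM (SD, n = 2), above CcKO at 7.23 ± 2.9 CPM. CcKO, PB-Ctrl at 6.55 ± 0.76 CPM and WT at 5.42 ± 0.91 CPM overlapped as neighbours, and PB-CCN1 at 4.35 ± 0.24 CPM lay below all of these. Within the E15.5 experiment the sum in PB-CCN1 was 0.664 times that in PB-Ctrl, and the sum in PB-GPC4 was 1.73 times that in PB-Ctrl, with the same PB-Ctrl libraries in both ratios. The sum in PB-CCN1 was 0.384 times that in PB-GPC4. At E17.5 the sum in CcKO was 1.33 times that in WT, and 0.951 times without CcKO replicate 2, so its direction rested on that library.

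**Figure D2:**
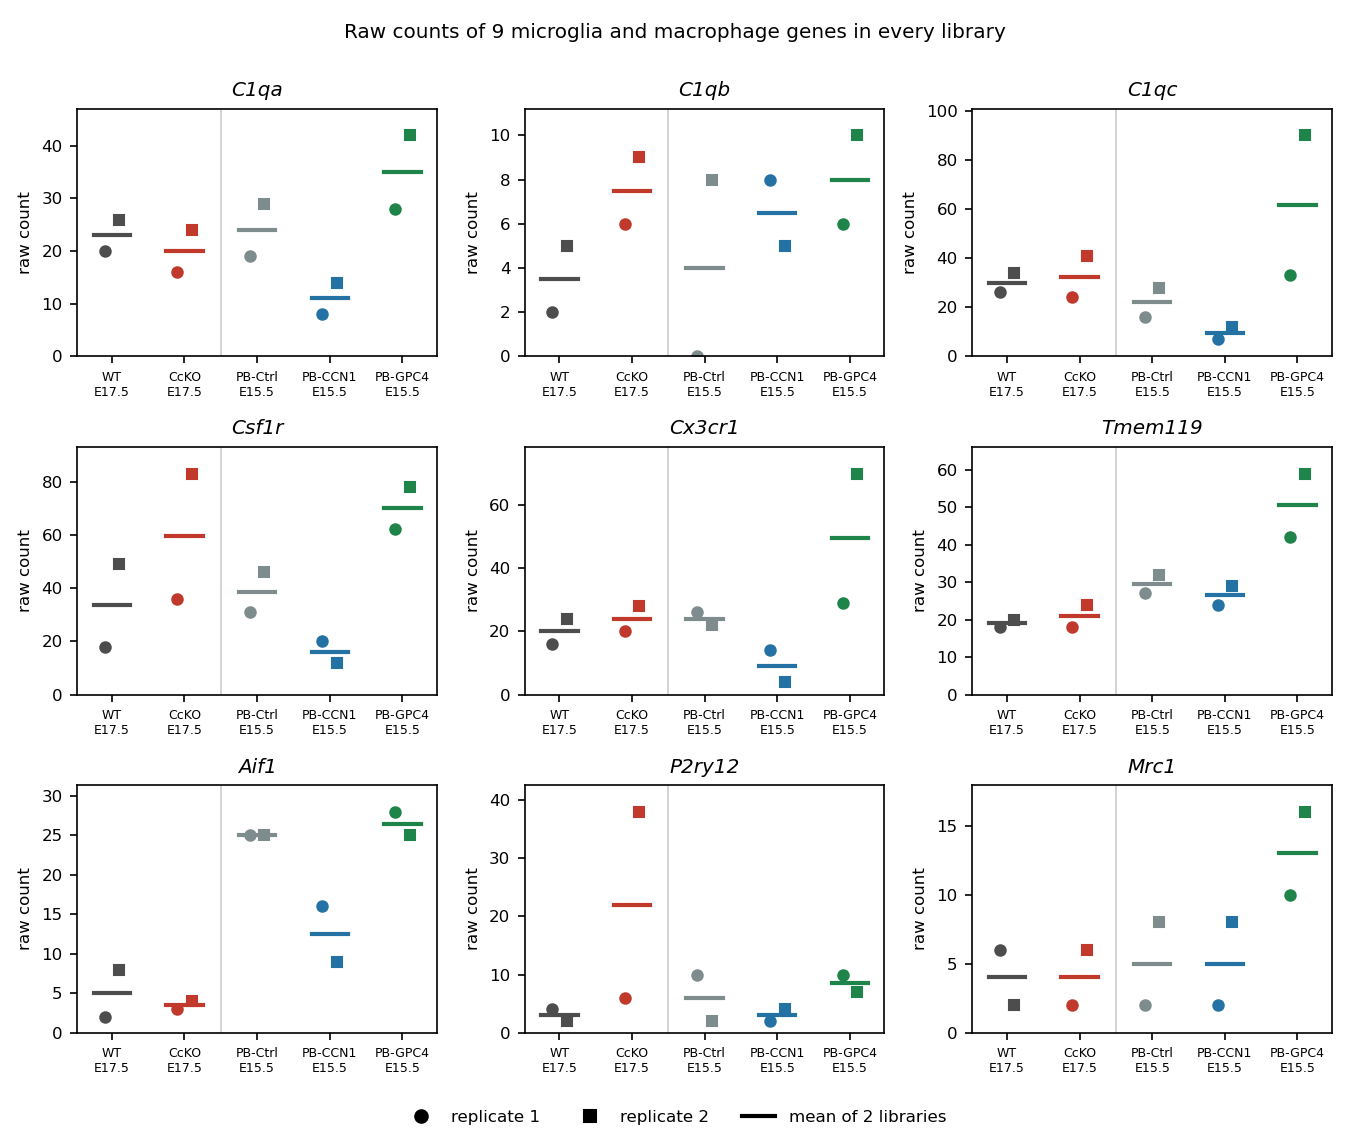
Raw counts of each of the 9 genes (linear axes starting at 0, a separate scale per gene) in each library by group, with a bar at the mean of 2 libraries. PB-GPC4 replicate 2 holds the highest count of C1qa, C1qb, C1qc, Cx3cr1, Tmem119 and Mrc1, and the Aif1 counts of the E17.5 groups, 2 to 8, lie below those of every E15.5 library, 9 to 28.

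Level per length was compared with the deposited FPKM, which scales a count by transcript length and library total. Averaged over the 10 libraries, C1qc was the highest of the 9 at 1.08 FPKM, followed by C1qa at 0.783, Aif1 at 0.627, Tmem119 at 0.533, Csf1r at 0.416 and Cx3cr1 at 0.25 FPKM. C1qb at 0.211, P2ry12 at 0.136 and Mrc1 at 0.0437 FPKM were the lowest. The order differed between groups. Aif1 was the highest of the 9 in PB-Ctrl at 1.07 ± 0.066 FPKM (SD, n = 2), with C1qc at 0.771 ± 0.25, and in PB-CCN1 at 0.625 ± 0.27, with C1qc at 0.39 ± 0.13. In WT and CcKO, Aif1 stood at 0.215 ± 0.16 and 0.15 ± 0.02 FPKM, below Tmem119 at 0.36 ± 0.018 and 0.379 ± 0.052. By contrast, the cortical neural markers together reached 2770 to 3140 FPKM. The low counts limit every comparison that follows, and a filter that asked for at least 0.387 CPM in at least 2 libraries kept 7 of the 9 genes. C1qb reached that level in 0 libraries and Mrc1 in 1, so neither was tested. P2ry12 reached it only in CcKO replicate 2 and PB-Ctrl replicate 1, and Aif1 only in 5 libraries, all at E15.5.

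The complement subunits C1qa, C1qb and C1qc encode the A, B and C chains that assemble into C1q, the recognition molecule of the classical pathway. C1qa had 20 and 26 counts in the WT libraries, 16 and 24 with the knockout, 19 and 29 under PB-Ctrl, 8 and 14 under PB-CCN1 and 28 and 42 under PB-GPC4. C1qc had 26 and 34 counts in the WT libraries, 24 and 41 with the knockout, 16 and 28 under PB-Ctrl, 7 and 12 under PB-CCN1 and 33 and 90 under PB-GPC4. Scaled to CPM, both genes had PB-CCN1 wholly below PB-Ctrl and PB-GPC4 wholly above it, for C1qa by 1.09 against 1.03 CPM between the nearest libraries, while WT and CcKO overlapped. C1qb had 2 and 5 counts in the WT libraries, 6 and 9 with the knockout, 0 and 8 under PB-Ctrl, 8 and 5 under PB-CCN1 and 6 and 10 under PB-GPC4. The 0 in PB-Ctrl replicate 1 allows up to 3 counts, or 0.117 CPM in that library. Although the 3 chains enter the protein in equal number, the transcript of C1qb averaged 0.211 FPKM against 1.08 FPKM for C1qc, and C1qb was the lowest of the 3 in every library except PB-CCN1 replicate 1, where C1qb stood at 0.335, C1qa at 0.329 and C1qc at 0.295 FPKM.

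The receptors of the list are Csf1r, the receptor for CSF1 and IL-34 on which microglial survival depends, Cx3cr1, the receptor for the neuronal chemokine CX3CL1, and P2ry12, an ADP receptor that directs microglial processes towards injury. Csf1r (gene ID 12978, chromosome 18, 61105572 to 61131139) had 18 and 49 counts in the WT libraries, 36 and 83 with the knockout, 31 and 46 under PB-Ctrl, 20 and 12 under PB-CCN1 and 62 and 78 under PB-GPC4. Cx3cr1 (13051, chromosome 9, 120048683 to 120068296) had 16 and 24 counts in the WT libraries, 20 and 28 with the knockout, 26 and 22 under PB-Ctrl, 14 and 4 under PB-CCN1 and 29 and 70 under PB-GPC4. Both receptors had the same order at E15.5, with PB-CCN1 lowest and PB-GPC4 highest and no overlap of either with PB-Ctrl, and both overlapped between WT and CcKO. P2ry12 (70839, chromosome 3, 59216271 to 59262985) had 4 and 2 counts in the WT libraries, 6 and 38 with the knockout, 10 and 2 under PB-Ctrl, 2 and 4 under PB-CCN1 and 10 and 7 under PB-GPC4. A single library, CcKO replicate 2, held 38 of the 44 P2ry12 counts of its group, and every other library had 10 or fewer.

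Tmem119, a transmembrane protein used to tell microglia from other macrophages, Aif1, which encodes the calcium-binding protein IBA1, and Mrc1, the mannose receptor CD206 of border-associated macrophages, complete the list. Tmem119 (231633, chromosome 5, 113793729 to 113800396) had 18 and 20 counts in the WT libraries, 18 and 24 with the knockout, 27 and 32 under PB-Ctrl, 24 and 29 under PB-CCN1 and 42 and 59 under PB-GPC4. Aif1 (11629, chromosome 17, 35170986 to 35176083) had 2 and 8 counts in the WT libraries, 3 and 4 with the knockout, 25 in each PB-Ctrl library, 16 and 9 under PB-CCN1 and 28 and 25 under PB-GPC4. For Tmem119 PB-CCN1 and PB-Ctrl overlapped and PB-GPC4 lay above both, and for Aif1 every E15.5 library lay above every E17.5 library. Mrc1 (17533, chromosome 2, 14229414 to 14332023) had 6 and 2 counts in the WT libraries, 2 and 6 with the knockout, 2 and 8 under PB-Ctrl, 2 and 8 under PB-CCN1 and 10 and 16 under PB-GPC4. Its PB-GPC4 libraries were the 2 highest of the 10.

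The first comparison asked what loss of Ccn1 from the neural lineage does at E17.5. P2ry12 was the only tested member to pass in CcKO against WT, on the strength of a single library, and the edgeR quasi-likelihood test called 1 of 7 members, against 30.3% of all 15371 genes tested. Of the libraries in this contrast, P2ry12 reached the filter on low counts only in CcKO replicate 2, where it was high. Its entry into the test was therefore not independent of this difference. P2ry12 averaged 0.806 ± 0.81 CPM in CcKO and 0.121 ± 0.07 CPM in WT (SD, n = 2), a 6.66-fold difference and 2.74 as a log2 fold change (SE 1.00, adjusted p = 0.0389). Without CcKO replicate 2 the log2 fold change of P2ry12 was 0.95 (edgeR adjusted p = 0.684), and over the alternatives that gave one its adjusted p ranged from 0.0154 to 0.684. P2ry12 lies within Med12l, a Mediator subunit gene on the opposite strand that shares 9 of the 2546 P2ry12 exon bases in GENCODE M21. The strand setting of the counting is not given in the sources used here, and Med12l was itself higher in CcKO by 1.15 on the log2 scale (SE 0.14, edgeR adjusted p = 4.38e-07). The part of Med12l reads in the P2ry12 count was not tested. Med12l stood at 17.1 CPM in CcKO replicate 1 and 13.1 in replicate 2, in the opposite order to P2ry12 at 0.236 and 1.38 CPM.

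The other members did not pass at E17.5. Csf1r averaged 2.21 ± 1.1 CPM in CcKO and 1.26 ± 0.69 CPM in WT (log2 fold change 0.80, SE 0.45, edgeR adjusted p = 0.189), and without CcKO replicate 1 it passed at a log2 fold change of 1.24 (adjusted p = 0.0494). The log2 fold changes were 0.07 (SE 0.51) for C1qc, 0.09 (SE 0.51) for Tmem119, 0.22 (SE 0.58) for Cx3cr1, -0.25 (SE 0.56) for C1qa and -0.52 (SE 0.94) for Aif1, with edgeR adjusted p from 0.731 to 0.943. Both CcKO libraries lay above both WT libraries for 2 of the 9 genes, C1qb and P2ry12, against 32.7% of the genes tested. The median log2 fold change of the 7 tested members was 0.09, against 0.02 over all tested genes.

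The E15.5 comparisons asked what added CCN1 or added GPC4 does, and both use the same PB-Ctrl libraries. In PB-CCN1 against PB-Ctrl, edgeR called 0 of the 7 members, where it called 1.19% of all tested genes (0.442% higher and 0.748% lower). At an unadjusted p under 0.05 it was again 0 of 7, and DESeq2 called 0 of the 6 members to which it gave an adjusted p. Of the 9 genes, 5 had both PB-CCN1 libraries below both PB-Ctrl libraries (C1qa, C1qc, Csf1r, Cx3cr1 and Aif1), against 21.9% of tested genes. Their log2 fold changes were -1.15 (SE 0.63) for Cx3cr1, -1.0 (SE 0.50) for Csf1r, -0.95 (SE 0.60) for C1qc, -0.87 (SE 0.59) for C1qa and -0.74 (SE 0.68) for Aif1, with edgeR adjusted p from 0.44 to 0.741. Tmem119 gave 0.10 (SE 0.48, adjusted p = 0.968). The median over the 7 was -0.87, against 0.01 over all tested genes.

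In PB-GPC4 against PB-Ctrl, edgeR called 0 of the 7 members, against 6.36% of all tested genes (3.19% higher and 3.17% lower), and 1 of 7, C1qc, had an unadjusted p under 0.05. C1qc averaged 2.12 ± 1.2 CPM in PB-GPC4 and 0.805 ± 0.27 CPM in PB-Ctrl, 1.40 as a log2 fold change (SE 0.51, edgeR adjusted p = 0.102), and it passed without the filter on low counts (adjusted p = 0.0362) and on halved counts (adjusted p = 0.0485). DESeq2 gave an adjusted p to 0 of the 9 genes in that comparison. Both PB-GPC4 libraries lay above both PB-Ctrl libraries for 6 of the 9 genes (C1qa, C1qc, Csf1r, Cx3cr1, Tmem119 and Mrc1), against 26.7% of tested genes. The log2 fold changes were 0.95 (SE 0.55) for Cx3cr1, 0.81 (SE 0.44) for Csf1r, 0.71 (SE 0.46) for Tmem119, 0.49 (SE 0.53) for C1qa, 0.44 (SE 0.98) for P2ry12 and 0.04 (SE 0.64) for Aif1. Their edgeR adjusted p ran from 0.305 to 0.987, and the median over the 7 was 0.71, against 0 over all tested genes.

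**Figure D3:**
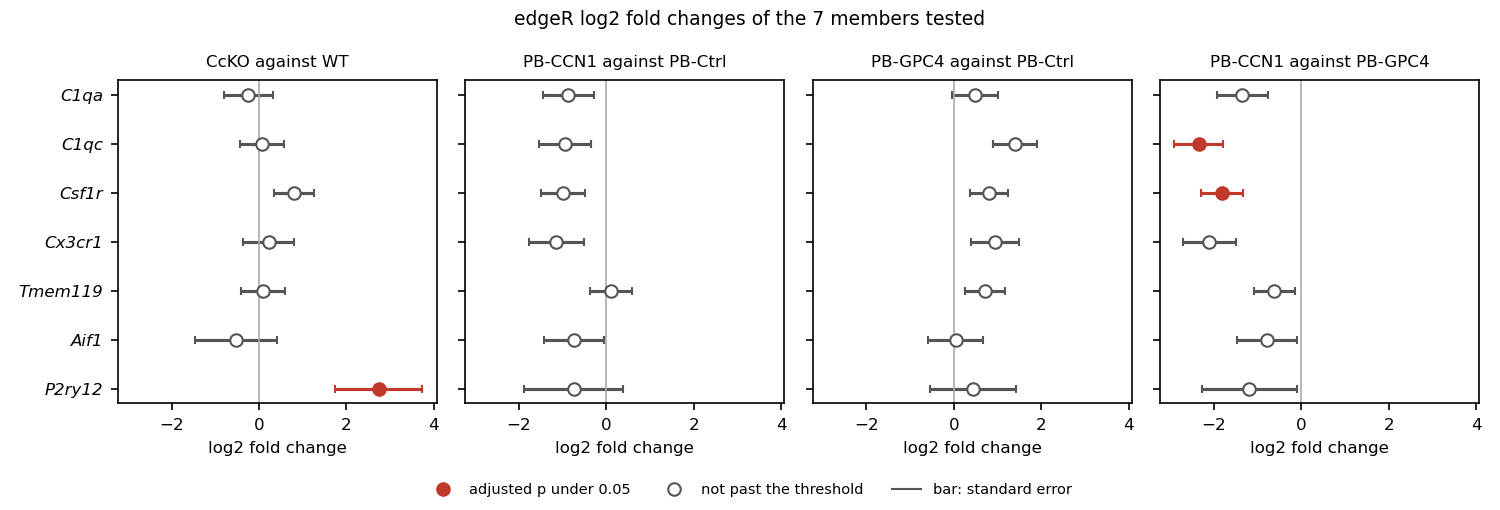
The edgeR log2 fold changes of the 7 tested genes in 4 comparisons, each with its standard error as a bar and a filled red point where the adjusted p is under 0.05. PB-CCN1 lies below PB-GPC4 for all 7 genes, with C1qc at -2.34 and Csf1r at -1.81 past the threshold, and P2ry12 at 2.74 is the only point past it between CcKO and WT.

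The plasmids were then set directly against each other. C1qc and Csf1r were lower in PB-CCN1 than in PB-GPC4, and edgeR called these 2 of the 7 members, against 2.15% of all tested genes. C1qc averaged 0.415 ± 0.14 CPM in PB-CCN1 and 2.12 ± 1.2 CPM in PB-GPC4 (SD, n = 2), a ratio of 0.197 and -2.34 as a log2 fold change (SE 0.56, adjusted p = 0.0229). Csf1r averaged 0.707 ± 0.27 and 2.49 ± 0.10 CPM, a ratio of 0.285 and -1.81 as a log2 fold change (SE 0.48, edgeR adjusted p = 0.0423). Cx3cr1, at 0.40 ± 0.32 and 1.71 ± 0.82 CPM, did not pass (log2 fold change -2.10, SE 0.61, edgeR adjusted p = 0.0695). The log2 fold changes of C1qa, P2ry12, Aif1 and Tmem119 were -1.35, -1.19, -0.78 and -0.62, with edgeR adjusted p from 0.262 to 0.687. Both PB-CCN1 libraries lay below both PB-GPC4 libraries for 8 of the 9 genes, all but C1qb, against 23.3% of tested genes. The median of the 7 was -1.35, against 0 over all tested genes.

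Neither call between the plasmids held in every fit with a library left out. Such a fit leaves 1 library in a group and has less power, so a lost call does not show dependence on that library. The log2 fold change of C1qc was -2.04 without PB-CCN1 replicate 1 and -2.75 without PB-CCN1 replicate 2. It was -1.63 without PB-GPC4 replicate 2 and -2.81 without PB-GPC4 replicate 1. Csf1r lost its call without any of the 4 plasmid libraries, and also without either PB-Ctrl library, which lies outside the contrast.

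The make-up of the members' counts was also read. Tmem119 supplied 26.8% of the 9 genes' counts in PB-CCN1, against 16.6% in PB-Ctrl, 15.7% in PB-GPC4, 10.8% in CcKO, and 16.1% and 11.8% in the WT libraries. Csf1r supplied 16.2% in PB-CCN1, 21.6% in PB-Ctrl, 21.7% in PB-GPC4, 23.8% in WT and 30.7% in CcKO. Aif1 supplied 14.0% in PB-Ctrl, 12.6% in PB-CCN1 and 8.22% in PB-GPC4, but 3.55% in WT and 1.8% in CcKO. P2ry12 supplied 4.58% in CcKO replicate 1 and 14.8% in CcKO replicate 2, and between 1.0% and 6.41% in the other libraries. Replicates differed as well, with Csf1r at 16.1% and 28.8% in the WT libraries and at 19.8% and 12.4% in the PB-CCN1 libraries. These shares carry no test.

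**Figure D4:**
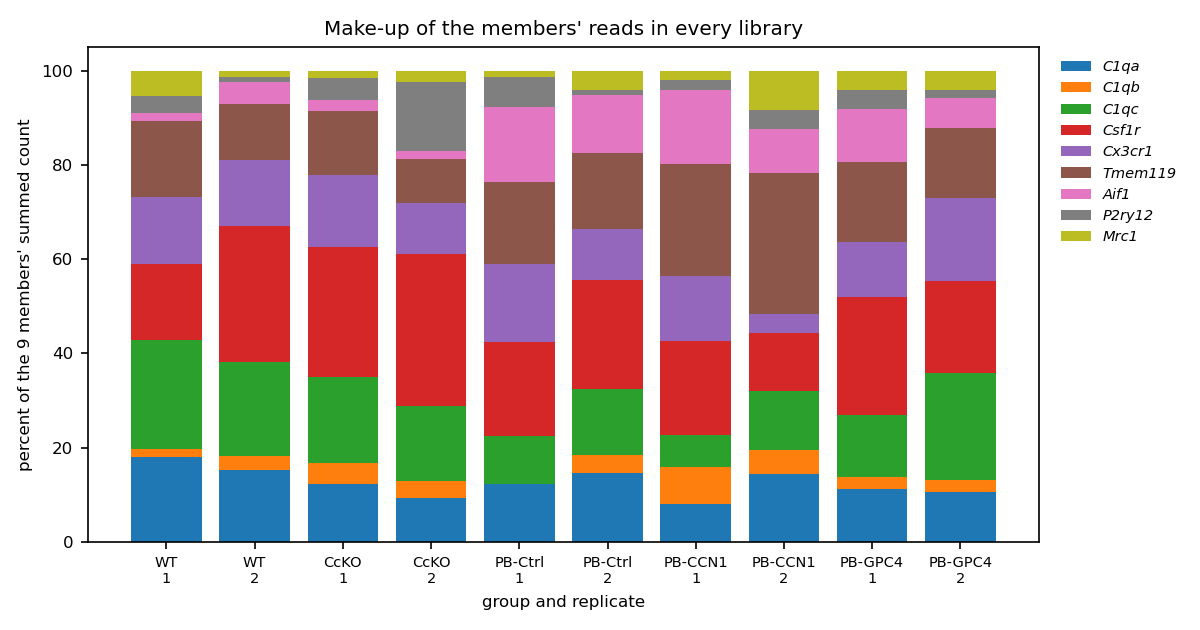
Share of each of the 9 genes (percent of their summed raw count, stacked to 100) in each of the 10 libraries. The Tmem119 segment is widest in the PB-CCN1 libraries (23.8% and 29.9%), the Aif1 segment is narrow in the 4 E17.5 libraries (1.56% to 4.71%), and P2ry12 takes 14.8% in CcKO replicate 2.

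Members also differed in how closely they tracked one another. Across the 10 libraries, after log2 CPM was centred on the mean of its experiment, Pearson's r between a gene and the sum of the other 8 was 0.882 for Csf1r, 0.852 for C1qc, 0.821 for Cx3cr1, 0.793 for C1qa and 0.773 for Tmem119. It was 0.547 for Mrc1, 0.491 for Aif1, 0.41 for P2ry12 and 0.29 for C1qb, which are the 4 genes with the fewest reads. These are descriptions over 10 libraries that share 5 groups. Outside the list, the genes whose pattern was most like the sum of the members were Pnma2 (r = 0.927), Fntb (0.924), Spc25 (0.919), Sec13 (0.915) and Melk (0.914), over the same 10 libraries. None of these 5 is a myeloid marker. Of the other microglia genes, Fcrls ranked 23 of 15364 genes (r = 0.875) and Laptm5 33 (r = 0.849), whereas Cd68 ranked 15063 (r = -0.729) and Lyz2 15330 (r = -0.865).

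The control comparison asked how the members differ between the control groups of the experiments, WT at E17.5 and PB-Ctrl at E15.5. Strain, age, day of electroporation and the interval from electroporation to collection all differ between these groups and cannot be told apart. Aif1 averaged 0.185 ± 0.14 CPM in WT and 0.925 ± 0.055 CPM in PB-Ctrl (SD, n = 2), a ratio of 0.21 and -2.25 as a log2 fold change (SE 0.76, edgeR adjusted p = 0.0139). Aif1 had passed the filter on low counts only through E15.5 libraries, where it was high, so its entry into the test was not independent of this difference. It was the 1 member called of 7, where 54.9% of all tested genes were called, and it lost its call without WT replicate 1 (adjusted p = 0.134) or without either PB-Ctrl library (adjusted p = 0.0692 and 0.0536). Aif1 and Tmem119 were higher in both PB-Ctrl libraries than in both WT libraries, 2 of the 9 genes against 39.4% of tested genes, and C1qc was higher in both WT libraries, 1 of 9 against 38%. The log2 fold changes of the other tested genes lay between -0.90 for P2ry12 and 0.52 for C1qc, with edgeR adjusted p from 0.36 to 0.985, and the median of the 7 was -0.20, against -0.01 over all tested genes.

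The ligands and complement partners of the members were a second list of 9 genes, of which 7 were tested. Csf1, the ligand of Csf1r, averaged 4.63 FPKM and had between 487 and 593 counts in the 10 libraries. In PB-GPC4 against PB-Ctrl its log2 fold change was -0.01 (SE 0.12, edgeR adjusted p = 0.976), and in PB-CCN1 against PB-GPC4, where Csf1r was called, it was 0.16 (SE 0.12, adjusted p = 0.603). Il34, the other ligand, had at most 15 counts in any library. Cx3cl1, the ligand of Cx3cr1, had 87 and 146 counts in the WT libraries, 146 and 140 with the knockout, 59 and 100 under PB-Ctrl, 97 and 68 under PB-CCN1 and 59 and 82 under PB-GPC4, with overlap with PB-Ctrl in both plasmid groups.

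Tgfb1, a cytokine that maintains microglial identity, had 10 and 22 counts in the WT libraries, 30 and 12 with the knockout, 18 and 14 under PB-Ctrl, 6 and 2 under PB-CCN1 and 40 and 20 under PB-GPC4. Its log2 fold change in PB-CCN1 against PB-GPC4 was -2.61 (SE 0.80, edgeR adjusted p = 0.089). C3, the central complement component, had 30 and 19 counts in the WT libraries, 20 and 12 with the knockout, 40 and 63 under PB-Ctrl, 54 and 56 under PB-CCN1 and 10 and 38 under PB-GPC4, the reverse of the order of C1qc at E15.5. Of the other complement genes, C1ra and C1s1, the proteases bound to C1q, had at most 12 counts, C2 had 4 to 20 and C4b 1 to 28. EdgeR called 0 of the 7 tested genes in any of the 5 comparisons, where it called 1.19% to 54.9% of all tested genes. At an unadjusted p under 0.05 there were 0 in CcKO against WT, 2 in PB-CCN1 against PB-GPC4 and 1 in each of the others.

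Of a further list of 25 microglia and macrophage genes, 19 were tested, and edgeR called 2 of them higher and 2 lower in PB-GPC4 than in PB-Ctrl, against 3.19% and 3.17% of all tested genes. In that comparison 16 of the 19 had a log2 fold change above 0, with a median of 0.83 against 0 over all tested genes, and 12 of the 25 had both PB-GPC4 libraries above both PB-Ctrl libraries, against 26.7%. In PB-CCN1 against PB-GPC4 the median was -0.81, also against 0, and 5 of the 19 were above 0. Fcrls, a microglial Fc receptor-like gene, had 4 and 7 counts under PB-Ctrl, 8 and 4 under PB-CCN1 and 30 and 40 under PB-GPC4, 18 and 20 in WT, and 15 and 40 in CcKO. It rose in PB-GPC4 by 2.59 on the log2 scale (SE 0.70, edgeR adjusted p = 0.0228). Ly86, the partner of a Toll-like receptor homologue, was picked out after its values were seen. It had 2 and 4 counts under PB-Ctrl, 6 and 0 under PB-CCN1 and 26 and 30 under PB-GPC4, 8 and 10 in WT, and 2 and 12 in CcKO, and it rose in PB-GPC4 by 3.12 (SE 0.96, adjusted p = 0.0473). The filter level was reached by Ly86 only in the PB-GPC4 libraries, where it was high, and in CcKO replicate 2. Entry of Ly86 into the test was therefore not independent of this difference.

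Cd68 and Lyz2 of that list went the other way. Cd68, a lysosomal glycoprotein of phagocytes, had 241 and 263 counts under PB-Ctrl, 148 and 180 under PB-CCN1 and 101 and 130 under PB-GPC4, 273 and 295 in WT, and 213 and 159 in CcKO. It fell in PB-GPC4 (log2 fold change -1.18, SE 0.19, edgeR adjusted p = 0.000236) and in CcKO (-0.65, SE 0.18, adjusted p = 0.00733). The latter was the only call of the 19 in CcKO against WT, where 30.3% of all tested genes were called. Lyz2, a lysozyme of myeloid cells, had 80 and 129 counts under PB-Ctrl, 98 and 102 under PB-CCN1 and 29 and 44 under PB-GPC4, and fell in PB-GPC4 (log2 fold change -1.57, SE 0.36, adjusted p = 0.00705). Both were higher in PB-CCN1 than in PB-GPC4, by 0.81 (SE 0.20, adjusted p = 0.0255) and 1.76 (SE 0.36, adjusted p = 0.00611), where C1qc and Csf1r were lower. In PB-CCN1 against PB-Ctrl edgeR called 0 of the 19, against 1.19% of all tested genes, with 0 at an unadjusted p under 0.05. In WT against PB-Ctrl edgeR called 4 of the 19, 1 higher and 3 lower, against 54.9% of all tested genes. Fcrls was higher (log2 fold change 1.85, SE 0.72, edgeR adjusted p = 0.0322), and Lyz2 was among those lower (-1.09, SE 0.35, adjusted p = 0.00913).

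Markers of other cells moved with some of these groups, and their part in the members' values was not tested. Border macrophage genes, which Mrc1 also marks, summed to 10.4 to 10.9 CPM in PB-CCN1, 7.37 to 9.89 in PB-Ctrl and 5.07 to 5.31 in PB-GPC4, and to 3.28 to 5.04 CPM at E17.5. Of that list's 10 genes 4 were tested. Cbr2, a carbonyl reductase, had 89 and 177 counts in PB-Ctrl and 129 and 123 in PB-CCN1, but 0 and 2 in PB-GPC4. It had 0 and 0 in WT, and 0 and 2 in CcKO. Cbr2 was the 1 called of the 4 in PB-GPC4 against PB-Ctrl, against 6.36% of all tested genes (log2 fold change -6.92, SE 0.67, edgeR adjusted p = 1.06e-07). The same held in PB-CCN1 against PB-GPC4, against 2.15% (7.1, SE 0.66, adjusted p = 6.17e-08). Cbr2 reached the filter level only in PB-Ctrl and PB-CCN1, where it was high. Its entry into the test was therefore not independent of these differences. Dab2, an endocytic adaptor, rose in PB-CCN1 against PB-Ctrl by 2.18 on the log2 scale (SE 0.46, edgeR adjusted p = 0.0112), at 2.19 CPM against 0.483. It was the 1 gene called there of the 4 tested, against 1.19% of all tested genes. The log2 fold changes of F13a1, Stab1 and Cbr2 were -0.75 (SE 0.49), -0.12 (SE 0.51) and 0.19 (SE 0.37), with edgeR adjusted p from 0.595 to 0.96. In PB-GPC4 Dab2 averaged 1.31 CPM against 0.483 in PB-Ctrl and did not pass (log2 fold change 1.44, SE 0.47, adjusted p = 0.0643). Without Cbr2, which was left out after its values were seen, the sums were 3.62 to 3.94 CPM in PB-Ctrl, 5.11 to 5.13 in PB-CCN1 and 5.07 to 5.25 in PB-GPC4, so the low place of PB-GPC4 rested on that gene.

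Erythroid genes summed to 9.38 to 11.7 CPM in PB-GPC4, 9.04 to 9.41 in PB-Ctrl and 5.2 to 5.78 in PB-CCN1, and to 12.9 to 13.1 in CcKO against 3.71 to 5.03 in WT. Of the 4 tested, 2 were called in CcKO against WT, against 30.3% of all tested genes. They were Hba-a1 and Hba-a2, near-identical alpha-globin copies between which reads can be split. Hba-a1 rose in CcKO by 2.74 on the log2 scale (SE 0.31, edgeR adjusted p = 8.39e-08). Hba-a1 was also called between the plasmids, lower in PB-CCN1 than in PB-GPC4 as C1qc and Csf1r were (log2 fold change -1.42, SE 0.27, adjusted p = 0.00285). It was the 1 gene called of the 4 tested, against 2.15% of all tested genes. Hba-a2 went the other way there and was not called (log2 fold change 0.94, SE 0.63, edgeR adjusted p = 0.545). Of the 7 erythroid genes found, 2 had both PB-CCN1 libraries above both PB-GPC4 libraries, against 23.6% of tested genes. The reverse held for 2, against 23.3%. Mural cell genes summed to 13.9 to 17.4 CPM in CcKO and 8.15 to 9.49 in WT. Of 7 tested, 1 was called, Cspg4 (log2 fold change 1.13, SE 0.41, edgeR adjusted p = 0.0394), against 30.3% of all tested genes. Endothelial genes summed to 10.4 to 10.8 and 6.27 to 8.67 CPM. Of 8 tested, 0 were called, against the same share, and 2 had an unadjusted p under 0.05. Meningeal and fibroblast genes lay between 9.59 and 24.7 CPM across the libraries, with overlap between WT and CcKO. Of 7 tested, 1 was called there, again against 30.3%, the laminin gene Lama1 (log2 fold change 1.07, SE 0.20, edgeR adjusted p = 0.000192). Most of that list went the other way. Only 3 of the 7 were above 0, and their median was -0.1, against 0.02 over all tested genes.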

How the data were processed

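The authors deposited, for every library, a table of raw read counts per Entrez gene ID and the FPKM made from them. Per the submitters' processing notes, bcl2fastq, Trimmomatic, HISAT2 and featureCounts were used on mm10, with versions, strand setting and pair handling not given in the sources used here. Even counts made up 72.2% to 74.5% of values from 1 to 20 in each library, and 69 of the 90 member values, so reads of a pair may have been counted apart. In the deposited FPKM the gene length implied by count and FPKM was the same whole number in every library, so FPKM carries no information beyond counts. Intervals and floors of 3 counts cover counting error only.

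Gene IDs were matched to RefSeq symbols (25274 of 27178, 93.0%), which also gave positions on GRCm38.p6. Counts were tested with edgeR 4.0.16 in R 4.3.3 (TMM, filterByExpr, quasi-likelihood, 5 group means in 1 model, 5 residual degrees of freedom), two-sided, with Benjamini-Hochberg adjustment over all 15371 tested genes and a threshold of 0.05. Alternatives were no filter on low counts, relative log expression size factors, a replicate block, each experiment alone, each library left out, DESeq2 1.42.0, limma 3.58.1 on log2 of FPKM plus 1 or plus 0.1, and removal of a trend with gene length (lowess span 0.3). Halving the counts and leaving Cbr2 out of the border macrophage sum were added after the data were seen.

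The 9 members and the other gene lists were chosen with earlier results of these data known. Named were all members and partner genes, Ccn1 and Gpc4, up to 5 genes of most similar pattern, and from each other list the 3 genes of highest FPKM and up to 4 called genes, of which those that bear on the members are printed. A gene that this rule names is not reported here. Similarity used log2 of CPM plus 1.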

Additional observations from a re-analysis of the deposited data

How the results depend on the processing

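Of 632 member fold changes recomputed under the alternatives, 578 kept their direction and their side of the threshold, 30 lost a call, 8 gained one, 0 called values reversed and 16 that were never called changed sign. Summed as CPM of the raw total, as FPKM or without Csf1r, the 5 ratios of summed levels kept their direction. With a library left out they ranged from 0.951 to 1.72 for CcKO over WT, which changed direction without CcKO replicate 2, 0.614 to 0.723 for PB-CCN1 over PB-Ctrl, 1.48 to 1.99 for PB-GPC4 over PB-Ctrl, 0.334 to 0.45 for PB-CCN1 over PB-GPC4 and 0.729 to 0.925 for WT over PB-Ctrl. Members called in CcKO against WT went from 1 to 0 without the filter, with the replicate block (P2ry12 adjusted p = 0.0552), with each experiment alone and on halved counts (P2ry12 not tested in either), with limma at both pseudocounts and with the length trend removed, and ranged from 0 to 2 with a library left out. In PB-GPC4 against PB-Ctrl they went from 0 to 1 without the filter and on halved counts. In PB-CCN1 against PB-GPC4 they went from 2 to 0 with limma at both pseudocounts and ranged from 0 to 3 with a library left out, and in WT against PB-Ctrl from 0 to 1. In PB-CCN1 against PB-GPC4, Cx3cr1 passed without the filter (adjusted p = 0.0114), with the experiment alone (0.0227) and on halved counts (0.0329).

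Genes called in CcKO against WT numbered 4663, and 2660 with the length trend removed (2919 to 4585 with a library left out). In PB-CCN1 against PB-Ctrl they were 183, and 298 without the filter, 537 with the experiment alone and 34 and 33 with limma at pseudocounts 1 and 0.1 (56 to 283). In PB-GPC4 against PB-Ctrl they were 978, and 2006 alone and 341 and 319 with limma (284 to 1475). In PB-CCN1 against PB-GPC4 they were 331, and 589 without the filter, 990 alone and 76 and 82 with limma (77 to 596), and in WT against PB-Ctrl they ranged from 7119 to 8759. Under size factors by relative log expression 563 genes were higher and 460 lower in PB-GPC4 than in PB-Ctrl, against 491 and 487, and with the length trend removed 669 and 445. In PB-CCN1 against PB-GPC4 the split was 184 and 144 by relative log expression, against 215 and 116. The cause was not tested. DESeq2 gave no adjusted p for P2ry12 in CcKO against WT, nor for C1qc and Csf1r in PB-CCN1 against PB-GPC4.

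Replicate numbers did not pair the samples: deviations of same-numbered libraries correlated between -0.0124 and 0.00854, and the replicate block left the members called in PB-CCN1 against PB-GPC4 at 2. With at most 90 reads per gene and library, changes larger than the printed standard errors also went uncalled. Cx3cr1 in PB-CCN1 against PB-GPC4, at a log2 fold change of -2.10 (SE 0.61), was such a case. A member that was not called may still differ.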
